A study of Mus musculus with 3 samples.

Results

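Solute carriers are the membrane proteins that move amino acids, sugars, ions, metals, nucleosides and organic acids across the plasma membrane and the membranes of organelles. The genes described here are the 127 of 334 symbols of the form Slc, number, a, number that reached 1000 unique molecular identifiers (UMIs, 1 per captured transcript) over 3 single-cell libraries of mouse marrow. Abundance chose them, so their total counts are a description. The members just inside that limit were Slc10a6 with 1039 UMIs, Slc16a7 with 1024 and Slc2a9 with 1005, and those just outside included Slc30a6 with 972 and Slc52a2 with 910. All 127 are annotated as protein-coding genes, and all 127 passed the filter on low counts of the test used below.

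The libraries came from tibial marrow of C57Bl/6JCrl mice, all given tamoxifen by gavage, with 1 library per genotype. Red cells were depleted, and endothelium, marked by VE-cadherin antibody given into the vein, and LepR-positive cells were stained together with CD45 and Ter119; the sources used here do not give the sort gates, the age or the number of mice per library. WT was wild type, FLOX was Vegfc flox/flox with no Cre named, and VC was Vegfc flox/flox with Cdh5CreERT2. Vegfc encodes a growth factor of lymphatic and sinusoidal endothelium. Cdh5CreERT2 is a tamoxifen-activated Cre recombinase under the promoter of VE-cadherin, which is active in endothelium. Transcripts were counted from their 3′ ends with the 10x Genomics droplet system. Values are given in the order WT, FLOX, VC throughout.

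Cells of 4 classes were gated on raw UMIs of genes that are not members. Sinusoidal endothelial cells had at least 1 Cdh5 UMI, under 50 Cxcl12 UMIs and at least 2 UMIs of Stab2, a scavenger receptor of sinusoids. Other endothelial cells differed by having at most 1 Stab2 UMI. LepR stromal cells had at least 50 Cxcl12 UMIs, at least 1 UMI of Lepr or Adipoq and at most 2 of Cdh5. Haematopoietic cells had at least 1 UMI of Ptprc (CD45), no Cdh5 and at most 5 of Cxcl12. Barcodes with at least 500 genes and at most 10% mitochondrial UMIs were kept, 4318, 5734 and 2738 of them, and they held 53556026, 60628051 and 36206305 UMIs. Over all barcodes, kept or not, pairs of libraries shared 5 to 10. The classes held 2992, 3200 and 1643 sinusoidal cells, 204, 381 and 197 other endothelial cells, 264, 1107 and 466 LepR stromal cells, and 569, 689 and 278 haematopoietic cells.

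Levels are counts per 1000000 UMIs of the class in that library (CPM). Markers that the gates did not use followed the names in 3 classes. The 6 pan-endothelial markers summed to 4269, 3889 and 3751 CPM in sinusoidal and 3702, 3269.7 and 3241 CPM in other endothelial cells, and the 6 LepR stromal markers to 16318, 12687 and 14294 CPM in LepR stromal cells. The other endothelial class was mixed. Its 5 sinusoidal markers summed to 878, 853 and 881 CPM, against 5771, 5979 and 7120.4 CPM in sinusoidal cells, and its 6 arterial markers to 238, 739 and 692 CPM, lowest in WT. Its 5 neutrophil markers summed to 33468, 23099 and 19878 CPM. Its 3 plasma cell markers summed to 490, 4850 and 8862 CPM and its 3 fibroblast markers to 2.43, 259 and 219 CPM, both lowest in WT. Its cells were shallower, with a median of 5421, 5765 and 6778 UMIs against 11107, 7781 and 10745 in sinusoidal cells. Haematopoietic markers also differed between libraries: 290, 134 and 86 cells passed a B lineage gate and 6, 151 and 54 a plasma cell gate.

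The transporters of the marrow niche set which fuels, metals and signals pass between blood, stroma and developing blood cells. Monocarboxylate carriers of the Slc16 family carry lactate, pyruvate and creatine, Slc39 and Slc30 proteins bring zinc into and out of the cytosol, and Slc25 proteins cross the inner mitochondrial membrane. The sinusoid is also a scavenging endothelium, and LepR-positive stroma is a source of Cxcl12 and stem cell factor for blood stem cells.

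Promoter windows are shown for members that lead in different classes; no difference between classes was tested. RefSeq windows of 300 bases (250 before and 50 after the start, GRCm38.p6) were found for 94 of the 127 members, 124 windows in all. The letters CACGTG, an E-box read the same on both strands, were in 7 of 28 windows of members leading in sinusoidal cells, as defined below, 3 of 20 of those leading in LepR stromal and 2 of 12 of those leading in haematopoietic cells, and in 16.1% of all 124 member windows. They were in 7.15% of all 32851 windows and in 10.1% of the 10153 windows of genes with at least 1000 UMIs. The letters CCGGAAG, the core of a site read by ETS factors, were found on either strand in 2 of the 28 sinusoidal, 9 of the 20 stromal and 2 of the 12 haematopoietic windows and in 20.2% of all member windows, against 8.86% of all windows and 18.2% of those of genes with at least 1000 UMIs. Several windows can belong to 1 gene, and a match describes letters only. The windows of the 3 sinusoidal members with the largest class difference that hold CACGTG, and of a pair of stromal members that hold CCGGAAG, are shown 5′ to 3′, with both strings in capitals on either strand.
Slc16a12, chr19:34747279-34747578, minus strand: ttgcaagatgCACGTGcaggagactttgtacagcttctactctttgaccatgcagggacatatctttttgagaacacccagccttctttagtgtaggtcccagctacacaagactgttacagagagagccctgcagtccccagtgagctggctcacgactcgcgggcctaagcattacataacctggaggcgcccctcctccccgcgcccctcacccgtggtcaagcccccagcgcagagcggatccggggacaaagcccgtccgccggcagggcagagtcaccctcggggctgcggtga
Slc39a8, chr3:135825407-135825706, plus strand: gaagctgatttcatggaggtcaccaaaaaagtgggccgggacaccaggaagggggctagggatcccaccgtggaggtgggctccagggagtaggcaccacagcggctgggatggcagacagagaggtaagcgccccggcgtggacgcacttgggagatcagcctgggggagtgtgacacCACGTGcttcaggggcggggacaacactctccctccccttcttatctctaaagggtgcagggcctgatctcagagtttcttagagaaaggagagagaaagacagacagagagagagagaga
Slc16a1, chr3:104638414-104638713, plus strand: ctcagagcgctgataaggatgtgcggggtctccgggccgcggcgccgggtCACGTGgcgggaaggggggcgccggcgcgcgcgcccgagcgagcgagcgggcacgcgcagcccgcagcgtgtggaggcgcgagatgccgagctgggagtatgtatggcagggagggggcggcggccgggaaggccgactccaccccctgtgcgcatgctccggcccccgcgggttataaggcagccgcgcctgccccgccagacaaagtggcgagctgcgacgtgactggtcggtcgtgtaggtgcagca
Slc38a6, chr12:73286598-73286897, plus strand: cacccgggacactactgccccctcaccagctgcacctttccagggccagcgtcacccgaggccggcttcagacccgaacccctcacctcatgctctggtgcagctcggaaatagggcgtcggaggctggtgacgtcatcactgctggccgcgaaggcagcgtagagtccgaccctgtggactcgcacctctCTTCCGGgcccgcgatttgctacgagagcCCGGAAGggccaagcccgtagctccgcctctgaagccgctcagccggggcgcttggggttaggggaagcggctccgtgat
Slc37a3, chr6:39377658-39377957, minus strand: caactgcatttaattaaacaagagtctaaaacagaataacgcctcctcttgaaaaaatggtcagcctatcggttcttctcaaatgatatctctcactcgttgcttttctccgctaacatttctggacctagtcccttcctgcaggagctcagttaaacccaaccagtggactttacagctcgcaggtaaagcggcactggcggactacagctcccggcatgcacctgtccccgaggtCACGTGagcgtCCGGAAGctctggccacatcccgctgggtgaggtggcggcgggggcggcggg
In these windows CACGTG began 240 bases before the start in Slc16a12, 71 in Slc39a8, 200 in Slc16a1 and 13 in Slc37a3. The CCGGAAG string began 59 and 30 bases before the start in Slc38a6 and 2 bases before it in Slc37a3, so Slc37a3 held both. The metal response cores TGCACNC and TGCGCNC were in 13.7% and 25.8% of member windows and in 12.4% and 26.8% of windows of genes with at least 1000 UMIs. The gamma-activated site TTCNNNGAA was in 4.84% of member windows against 6.68%, and the interferon-stimulated response element in 0 of 124 against 3.23%, each on both strands.

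Members as a whole made up a larger share of transcripts in LepR stromal than in haematopoietic cells. Their UMIs summed to 7198, 6254 and 6117 CPM in LepR stromal, 5666, 5428 and 5491 CPM in sinusoidal, 5284, 5605 and 5345 CPM in other endothelial and 3507, 3151 and 2823 CPM in haematopoietic cells. The stromal sums lay above and the haematopoietic sums below those of both endothelial classes in each library, while the endothelial classes overlapped. Few genes carried these sums: 18, 16 and 16 members held 50% of the member UMIs in sinusoidal cells, and 8, 9 and 9 in LepR stromal cells. Amino acid and amine carriers, 20 genes, were the largest group in all classes but the haematopoietic one. They summed to 2041, 2381 and 2274 CPM in other endothelial cells, where Slc6a6 alone averaged 1033 CPM. Their sums were 1404, 1420 and 1430 CPM in sinusoidal and 2143, 1724 and 1772 CPM in LepR stromal cells. Mitochondrial carriers were the largest group in haematopoietic cells, at 1419, 1213 and 1017 CPM for 26 genes. Metal and haem carriers summed to 1133, 1038 and 1069.9 CPM in sinusoidal cells, above 895, 715 and 714 CPM in LepR stromal and 384, 367 and 330.4 CPM in haematopoietic cells. Sugar and polyol carriers stood at 779, 754 and 707 CPM in LepR stromal cells against 232, 233 and 226 CPM in sinusoidal cells. Of that stromal sum 1 member, Slc5a3, held at least 50% in each library, with a mean of 434 CPM. How its UMIs were assigned is uncertain, as described below.

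Each member was then compared between classes with edgeR's quasi-likelihood test on UMIs summed per library and class, 12 sums with library as a block, adjusted by the Benjamini-Hochberg method over all 13987 genes tested. A gene leads in a class when it was higher there than in each of the other 3 with adjusted p under 0.05. The difference then printed is that to the nearest class, with its SE, and the p is the largest of the 3. The SE was derived from the test's F statistic, as the absolute log2 ratio over the square root of F. The fit scales each sum by a TMM normalization factor, which the CPM do not use. A log2 ratio can therefore differ from the ratio of the printed CPM. The error is the spread of class differences over 3 libraries of different genotype, not over repeat animals. Of the 127 members, 32 led in sinusoidal cells (25.2%), against 9.23% of all genes tested and 11.7% of the 10090 with at least 1000 UMIs. Another 26 led in LepR stromal cells (20.5%), against 16.2% of all genes and 14.5% of the abundant ones, and 13 in haematopoietic cells (10.2%), against 18.8% and 19.4%. Only Slc20a1 led in other endothelial cells, where 1.85% of all genes and 1.68% of abundant genes did, and 55 members led in no class. The limit of 1000 UMIs was set on sums over all kept cells, where sinusoidal cells held more UMIs than any other class. Genes high in sinusoidal cells therefore reached it more easily, members and abundant genes alike. With a limit of 500 UMIs, 152 symbols passed. Of these, 33 led in sinusoidal, 1 in other endothelial, 31 in LepR stromal and 18 in haematopoietic cells. The share of all genes at that limit is not given, so these counts have no background of their own. Without the FLOX library 16 members led in sinusoidal cells, and without the VC library 19 did and 6 led in haematopoietic cells. Without the WT library 2 led in other endothelial cells. The shares of all genes in these smaller fits are not given, so a fall particular to members cannot be told.

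By substrate, sinusoidal leaders were 7 of 19 carriers of inorganic ions, 6 of 21 of metals and haem, 5 of 20 of amino acids and 5 of 16 of organic acids, lipids and peptides. Stromal leaders were 4 of 10 sugar and polyol carriers, 4 of 20 amino acid carriers and 3 of 5 carriers of nucleotide sugars into the Golgi. Of the 26 mitochondrial carriers, 15 led in no class, 4 in haematopoietic, 4 in LepR stromal and 3 in sinusoidal cells. Over all genes tested, 9.23% led in sinusoidal, 16.2% in LepR stromal and 18.8% in haematopoietic cells. Among genes with at least 1000 UMIs, 11.7%, 14.5% and 19.4% did. The stromal count of amino acid carriers and the haematopoietic count of mitochondrial carriers were near these shares. The groups are small, and none was tested against them.

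**Figure D1:**
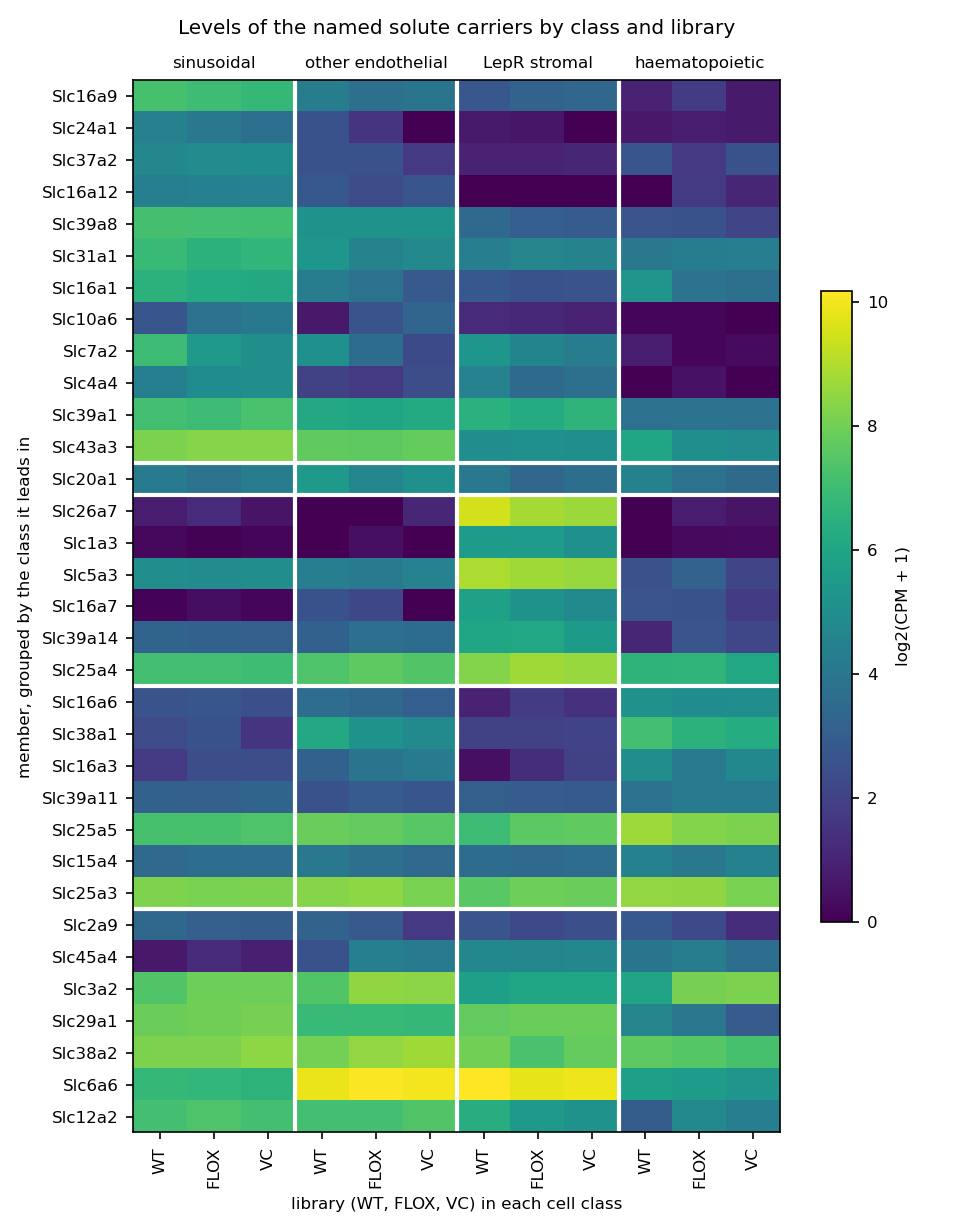
Colours give log2(CPM + 1) of members named by rule (rows, grouped between white lines by the class they lead in, with those leading in none at the bottom) in the 3 libraries of each of the 4 classes (columns). Slc16a9 was brightest in the 3 sinusoidal columns, Slc26a7 in the 3 stromal ones, and Slc6a6 in both the other endothelial and the stromal ones.

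Carriers of organic acids, lipids and peptides led in 3 classes, 5 of 16 in sinusoidal, 3 in LepR stromal and 3 in haematopoietic cells. Over all genes tested, 9.23%, 16.2% and 18.8% led in these classes, and 11.7%, 14.5% and 19.4% of genes with at least 1000 UMIs. Slc16a9 (chr10:70245100-70285968), a monocarboxylate family member that moves carnitine and creatine, stood at 146, 129 and 110.3 CPM in sinusoidal cells, 18.2, 12.3 and 13.9 CPM in other endothelial, 5.7, 8.34 and 9.19 CPM in LepR stromal and 0.99, 2.54 and 0.663 CPM in haematopoietic cells. Every sinusoidal value lay above every value of the other classes, and the nearest class was other endothelial (log2 3.22 ± 0.29 (SE), edgeR adjusted p = 4.01e-05). With each cell thinned to 2000 UMIs, 24.8%, 23.4% and 19.9% of sinusoidal cells held a Slc16a9 UMI (unthinned 69%, 59.8% and 62.6%), against at most 0.444% of haematopoietic cells, whose median depths before thinning were 7776, 11347 and 10033 UMIs. Slc16a12, a creatine transporter, was at 20.2, 21 and 22.1 CPM in sinusoidal and 6.07, 4.22 and 5.56 CPM in other endothelial cells (log2 2.15 ± 0.58 (SE), edgeR adjusted p = 0.023). Without the FLOX or the VC library its adjusted p was 0.0926 or 0.146. It had no UMI in any stromal sum, where 3 UMIs would be 1.01, 0.224 and 0.431 CPM.

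The lactate and pyruvate carrier Slc16a1 was at 92.5, 75.8 and 68.7 CPM in sinusoidal, 18.8, 13 and 6.12 CPM in other endothelial, 6.04, 4.84 and 5.17 CPM in LepR stromal and 38.8, 13.6 and 12.6 CPM in haematopoietic cells, so that haematopoietic cells were the nearest class (log2 1.82 ± 0.22 (SE), edgeR adjusted p = 5.69e-05). The fatty acid uptake protein Slc27a1 was also led by sinusoidal cells, at 26.4, 19.5 and 14.2 CPM against 8.39, 6.48 and 8.04 CPM in LepR stromal cells (log2 1.41 ± 0.28 (SE), edgeR adjusted p = 0.00161). Family members with related substrates led elsewhere. Slc16a7, a carrier of pyruvate and lactate, was at 56, 35.3 and 28 CPM in LepR stromal cells and under 1 CPM in every sinusoidal sum (log2 3.01 ± 0.35 (SE), edgeR adjusted p = 4.89e-05 against haematopoietic cells). Slc16a3, the lactate exporter MCT4, was at 31.7, 16.9 and 26.3 CPM in haematopoietic cells and 2.33, 4.4 and 4.51 CPM in sinusoidal cells, with other endothelial cells between at 7.89, 14 and 17.8 CPM (log2 1.21 ± 0.36 (SE), edgeR adjusted p = 0.0159). Its adjusted p was 0.0741 without the VC library and 0.0949 in cells with at least 5000 UMIs.

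Metal and haem carriers numbered 21, of which 6 led in sinusoidal, 4 in LepR stromal and 2 in haematopoietic cells. In these classes 9.23%, 16.2% and 18.8% of all genes led, and 11.7%, 14.5% and 19.4% of genes with at least 1000 UMIs. Slc39a8 (chr3:135825279-135888572), the zinc and manganese importer ZIP8, was at 145, 139 and 136 CPM in sinusoidal cells, 140.2 ± 4.59 CPM (mean and SD, n = 3 libraries). It was at 35.8, 36.4 and 36.2 CPM in other endothelial, 10.1, 7.23 and 6.89 CPM in LepR stromal and 5.44, 4.87 and 3.32 CPM in haematopoietic cells. The spread between libraries was small beside the distance to the nearest class (log2 2.03 ± 0.12 (SE), edgeR adjusted p = 5.43e-06). The copper importer Slc31a1 was at 117, 93.1 and 103 CPM in sinusoidal and 39.4, 22.7 and 26.7 CPM in other endothelial cells (log2 1.91 ± 0.22 (SE), edgeR adjusted p = 1.52e-04), and its relative Slc31a2 at 108, 108 and 114 CPM against 57.6, 67.6 and 77.3 CPM (log2 0.78 ± 0.12 (SE), edgeR adjusted p = 0.00104). Slc39a1, another zinc importer, was at 140.4, 125 and 152 CPM in sinusoidal and 90.3, 76.4 and 96.6 CPM in LepR stromal cells (log2 0.70 ± 0.10 (SE), edgeR adjusted p = 1.56e-04).

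Stroma led in other metal carriers. Slc39a14 (ZIP14), which takes up zinc, manganese and iron, was at 63.8, 66 and 46.2 CPM in LepR stromal cells and 7.89, 12 and 11.1 CPM in other endothelial cells (log2 2.54 ± 0.37 (SE), edgeR adjusted p = 2.66e-04). Ferroportin, Slc40a1, the iron exporter, was at 256, 123 and 139.5 CPM in LepR stromal and 55.7, 63.3 and 59.8 CPM in sinusoidal cells (log2 1.40 ± 0.22 (SE), edgeR adjusted p = 3.31e-04), with the highest stromal value in WT. The zinc exporter Slc30a1 led in no class: it was at 63.9, 60.2 and 54.1 CPM in sinusoidal and 42.5, 60.4 and 60.1 CPM in other endothelial cells, which overlapped (log2 0.18 ± 0.21 (SE), edgeR adjusted p = 0.551). Slc39a11 (ZIP11) led in haematopoietic cells at 13.2, 17.1 and 17 CPM against 7.98, 7.74 and 8.84 CPM in sinusoidal cells (log2 1.14 ± 0.17 (SE), edgeR adjusted p = 1.62e-04).

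Among ion carriers, Slc26a7 (chr4:14502430-14621805), an anion exchanger, was nearly restricted to LepR stromal cells. Stromal sums held 717, 452 and 404 CPM, against 0.767, 1.29 and 0.465 CPM in sinusoidal, 0, 0 and 1.11 CPM in other endothelial and 0, 0.71 and 0.442 CPM in haematopoietic cells. The values outside stroma rest on 30, 39 and 10 UMIs in the 3 sinusoidal sums (log2 9.23 ± 0.45 (SE), edgeR adjusted p = 4.51e-07 against sinusoidal cells). Thinned to 2000 UMIs, 65.3%, 56.6% and 50.3% of stromal cells held a Slc26a7 UMI (unthinned 93.2%, 92.4% and 93.3%), against at most 0.252% of sinusoidal, 0.606% of other endothelial and 0.37% of haematopoietic cells. Slc26a2, a sulfate transporter of the same family, led instead in sinusoidal cells at 94.1, 78.9 and 73.2 CPM against 58, 33.6 and 35.3 CPM in LepR stromal cells (log2 1.03 ± 0.15 (SE), edgeR adjusted p = 2.00e-04). Slc24a1, a sodium, calcium and potassium exchanger, was at 20.6, 16.1 and 12.1 CPM in sinusoidal and 4.85, 1.95 and 0 CPM in other endothelial cells (log2 3.03 ± 0.50 (SE), edgeR adjusted p = 0.00129). The sodium bicarbonate cotransporter Slc4a4 was at 20.1, 29.6 and 31.8 CPM in sinusoidal cells and 3.03, 2.27 and 4.45 CPM in other endothelial cells (log2 3.19 ± 0.47 (SE), edgeR adjusted p = 6.97e-04), but the WT stromal sum was above the WT sinusoidal one at 21.8, 10.6 and 12.3 CPM. Its lead over stroma had an adjusted p of 0.0294 with all libraries, 0.291 without FLOX and 0.274 without VC. Slc20a1, the sodium phosphate cotransporter PiT1 and the one leader of other endothelial cells, was there at 44.9, 24.4 and 33.9 CPM against 21.4, 12.8 and 10.6 CPM in haematopoietic and 17.2, 13.3 and 19 CPM in sinusoidal cells (log2 0.92 ± 0.18 (SE), edgeR adjusted p = 0.00218). The cotransporter of sodium, potassium and chloride Slc12a2 did not differ between sinusoidal cells at 139, 167 and 141 CPM and other endothelial cells at 139.5, 138 and 171 CPM beyond its error (log2 0.06 ± 0.40 (SE), edgeR adjusted p = 0.931).

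Amino acid carriers separated the endothelial classes in both directions. Slc6a6 (chr6:91684053-91759066), the taurine transporter and the member with the second most UMIs, was at 108, 105 and 95.5 CPM in sinusoidal and 52.2, 46.8 and 38.5 CPM in haematopoietic cells. It reached 938, 1126 and 1036 CPM in other endothelial cells and 1158, 899 and 970.1 CPM in LepR stromal cells, with no overlap between the low and the high pair of classes. Sinusoidal cells were far below other endothelial ones (log2 -3.26 ± 0.14 (SE), edgeR adjusted p = 1.40e-06), while stromal and other endothelial cells overlapped, with a difference of log2 0.00 ± 0.13 (SE) and an edgeR adjusted p of 0.996. Within other endothelial cells Slc6a6 was highest in cells with arterial marker UMIs, which was examined after the class values had been seen. In the 57, 173 and 86 cells with at least 2 UMIs of arterial markers and no Ptprc it was at 1826, 2059 and 1780.2 CPM. In the 84, 103 and 66 cells with neither it was at 375, 415 and 178 CPM. In the 51, 61 and 25 cells with a Ptprc UMI it was at 149, 277 and 338 CPM. The subsets were cut on raw UMIs, so deeper cells passed the arterial limit more easily. The arterial subset held 695051, 1356690 and 851009 UMIs and the subset with neither 320391, 400229 and 326703. Cells between these limits entered no subset, and the part of depth was not tested. Thinned to 2000 UMIs, 82.1%, 73.3% and 74.5% of stromal and 40.2%, 60.6% and 61.2% of other endothelial cells held a Slc6a6 UMI, against 11.1%, 11.1% and 10.1% of sinusoidal cells (unthinned 97.7%, 97.1% and 98.9%, 47.5%, 69% and 64.5% and 32.8%, 31.5% and 33.8%).

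**Figure D2:**
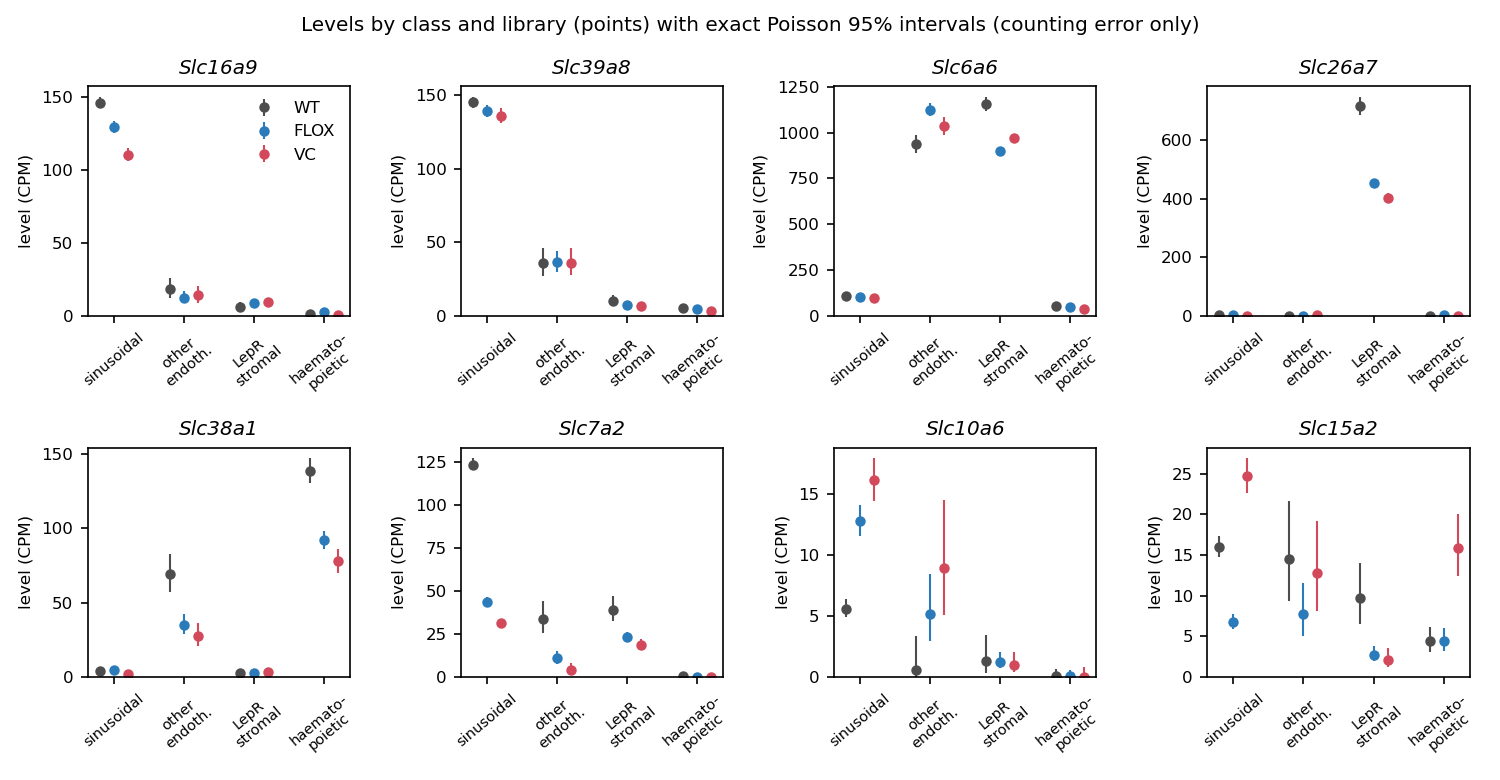
Points give CPM of 8 members in each class and library, with exact Poisson 95% intervals that cover counting error only; each panel has its own axis from 0. Slc6a6 is near 1000 CPM in other endothelial and stromal cells and near 100 in sinusoidal cells, and Slc7a2 is highest in WT in 3 classes.

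Several members of amino acid carrier families led in sinusoidal cells. Slc43a3, which belongs to such a family and takes up purine bases, was at 289, 316 and 322 CPM in sinusoidal and 209, 201 and 220.3 CPM in other endothelial cells, both well above 31.2, 33.8 and 32.9 CPM in LepR stromal cells (log2 0.63 ± 0.18 (SE), edgeR adjusted p = 0.0235). The lead over other endothelial cells had an adjusted p of 0.216 without the FLOX library, 0.0937 without VC, and 0.12 under the purer gates described below. The neutral amino acid carrier Slc43a2 was at 102, 99.6 and 77.3 CPM in sinusoidal and 57.6, 37.7 and 30.05 CPM in other endothelial cells (log2 1.25 ± 0.15 (SE), edgeR adjusted p = 2.15e-04). Slc7a8, a light chain that exchanges neutral amino acids, was at 24.2, 22.4 and 22.8 CPM in sinusoidal and 9.71, 9.1 and 11.7 CPM in other endothelial cells (log2 1.27 ± 0.21 (SE), edgeR adjusted p = 0.00121, and 0.0599 without FLOX). The glutamate transporter Slc1a3 marked stroma instead, at 48, 47.2 and 33.4 CPM in LepR stromal cells. Its UMIs numbered 6, 1 and 2 in the sinusoidal and 0, 1 and 0 in the other endothelial sums, and its largest edgeR adjusted p against the other 3 classes was 1.29e-06. The glutamine carrier Slc1a5 was at 233, 202 and 161 CPM in LepR stromal and 101, 41.3 and 51.9 CPM in haematopoietic cells (log2 1.49 ± 0.22 (SE), edgeR adjusted p = 1.55e-04).

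A pair of abundant amino acid carriers led in no class. Slc38a2, a sodium-coupled carrier of neutral amino acids, was at 286, 288 and 349 CPM in sinusoidal and 263, 367 and 417 CPM in other endothelial cells (log2 -0.11 ± 0.20 (SE), edgeR adjusted p = 0.713). Slc3a2, the heavy chain partnered by several amino acid carriers, was at 168, 245 and 243 CPM in sinusoidal, 168, 362 and 334 CPM in other endothelial, 52, 62.8 and 61.4 CPM in LepR stromal and 59.9, 272 and 286 CPM in haematopoietic cells. The haematopoietic values spanned the widest range, low in WT, and the plasma gate held 280.3, 641 and 608 CPM against 62.5, 82.5 and 56 CPM in the B gate, and the WT library had 6 plasma-gated cells. The part of this makeup in the class value was not tested.

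Sugar and polyol carriers divided between stroma and sinusoid. Slc5a3, the sodium-coupled carrier of myo-inositol, was at 491, 417 and 394 CPM in LepR stromal, 30.9, 29.4 and 30.4 CPM in sinusoidal, 19.4, 16.6 and 21.7 CPM in other endothelial and 4.7, 8.32 and 3.32 CPM in haematopoietic cells (log2 3.81 ± 0.23 (SE), edgeR adjusted p = 2.78e-07). Its exons overlap those of Mrps6 on the same strand in the GENCODE M21 annotation, so how its UMIs were assigned is uncertain. Of all 127 members, 8 share exon positions with another gene on the same strand and 37 with one on the opposite strand, among them Slc16a9, Slc6a6, Slc7a2 and Slc20a1. Slc37a2, an antiporter of glucose 6-phosphate in the endoplasmic reticulum, was at 25.4, 28.8 and 29.5 CPM in sinusoidal and 5.57, 2.23 and 4.86 CPM in haematopoietic cells (log2 2.60 ± 0.27 (SE), edgeR adjusted p = 1.72e-04). The glucose carrier Slc2a1 was at 20.4, 17.6 and 18.3 CPM in sinusoidal and 9.1, 12 and 16.7 CPM in other endothelial cells (log2 0.65 ± 0.21 (SE), edgeR adjusted p = 0.0373), with an adjusted p of 0.193 without WT, 0.258 without FLOX and 0.343 under purer gates. Slc2a3, the glucose carrier of neurons and white blood cells, was at 54, 92.1 and 80.1 CPM in LepR stromal and 44.8, 67.8 and 40.7 CPM in haematopoietic cells, which did not differ beyond their error (log2 0.31 ± 0.28 (SE), edgeR adjusted p = 0.338). The nucleoside carrier Slc29a1 was at 235, 249 and 269.9 CPM in sinusoidal and 211, 237 and 237 CPM in LepR stromal cells, which overlapped (log2 0.17 ± 0.24 (SE), edgeR adjusted p = 0.586), and at 115, 115 and 109 CPM in other endothelial cells (log2 1.23 ± 0.25 (SE), edgeR adjusted p = 0.00387 for sinusoidal over other endothelial cells, adjusted p = 0.0764 without FLOX).

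Mitochondrial carriers include the most abundant member. The phosphate carrier Slc25a3, with the most UMIs of any member, was at 292, 277 and 291 CPM in sinusoidal, 319.7, 344 and 279 CPM in other endothelial, 189.9, 241 and 228 CPM in LepR stromal and 366, 362 and 279.8 CPM in haematopoietic cells (log2 0.36 ± 0.13 (SE), edgeR adjusted p = 0.0368 for haematopoietic over other endothelial cells). In CPM, which lack the TMM factors of the fit, the means were 336 in haematopoietic and 314 in other endothelial cells. The VC values there were 279.8 and 279 CPM. The small difference in the fit had an edgeR adjusted p of 0.202 without FLOX, 0.181 without VC and 0.286 without the 5% of cells with most UMIs. The ADP and ATP exchangers split by class. Slc25a4 was at 313, 424 and 390.5 CPM in LepR stromal and 96.4, 100.2 and 67.2 CPM in haematopoietic cells, and Slc25a5 at 126, 196 and 204 CPM in LepR stromal and 413, 314 and 290.0 CPM in haematopoietic cells. Slc25a4 led in stroma (log2 1.11 ± 0.13 (SE), edgeR adjusted p = 5.39e-05) and Slc25a5 in haematopoietic cells (log2 0.95 ± 0.19 (SE), edgeR adjusted p = 0.00189). They are close paralogs, so how reads were split between them is uncertain. Slc25a51, which imports NAD into mitochondria, led in sinusoidal cells at 103, 105 and 110.4 CPM against 57, 51.3 and 42.8 CPM in other endothelial cells (log2 1.15 ± 0.16 (SE), edgeR adjusted p = 5.31e-04).

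Between the endothelial classes, 46 members were higher in sinusoidal cells (36.2%, against 15.2% of all genes tested and 19.3% of those with at least 1000 UMIs) and 11 were lower (8.66%, against 17% and 14.6%). The median log2 ratio of the 127 members was 0.33, against 0.03 over all 13987 genes and 0.08 over the 10090 abundant ones. After Slc16a9, the largest differences upward were in Slc4a4, Slc24a1, Slc37a2 and Slc16a1. Downward they were in Slc16a7, Slc45a4, Slc38a1, Slc6a6 and Slc16a3. Without the FLOX library 23 members were higher, and without the VC library 28 were higher and 5 lower. The shares of all genes in these smaller fits are not given. Whether members fell more than genes at large therefore cannot be told.

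**Figure D3:**
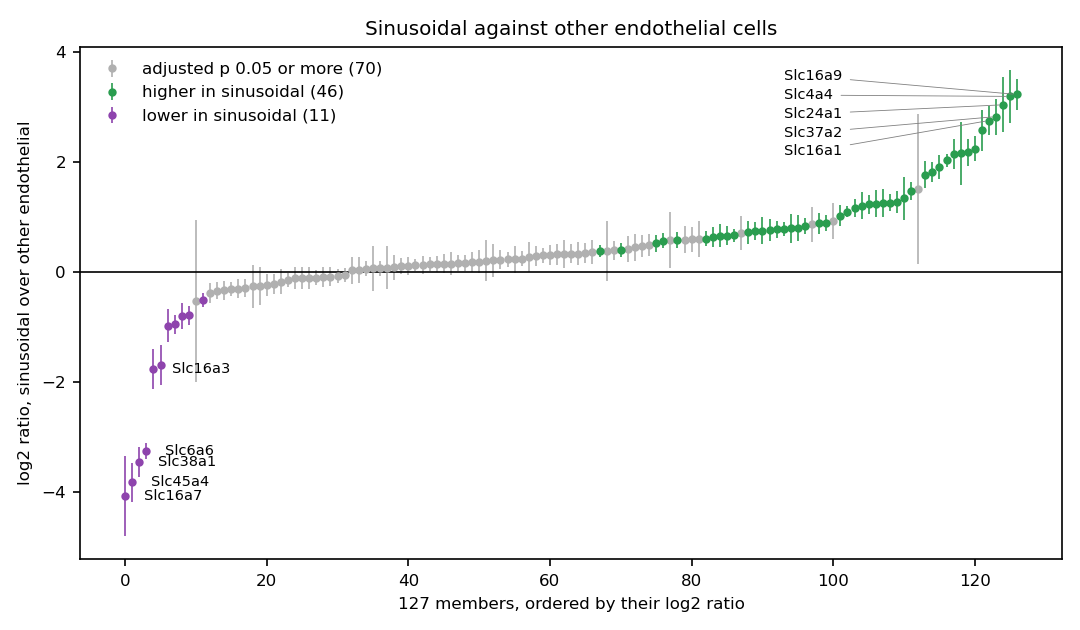
Each point is 1 of the 127 members, ordered by its log2 ratio of sinusoidal over other endothelial cells. Bars are 1 SE, derived from edgeR's F statistic, and colours mark adjusted p under 0.05. The 46 green points lie above 0 and the 11 purple ones below, with Slc16a7, Slc45a4, Slc38a1 and Slc6a6 furthest down.

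The members lower in sinusoidal cells were set beside subsets of the other endothelial class. Slc38a1, a sodium-coupled carrier of glutamine, was at 69.2, 35.1 and 27.8 CPM in other endothelial and 4.12, 4.86 and 2 CPM in sinusoidal cells (log2 -3.46 ± 0.27 (SE), edgeR adjusted p = 1.82e-05), and at 139, 92.3 and 77.8 CPM in haematopoietic cells. In other endothelial cells with arterial UMIs and no Ptprc it was at 0, 0.737 and 2.35 CPM, and in those with a Ptprc UMI at 203, 87.4 and 95.6 CPM. Under purer gates, which also ask for no Ptprc in endothelial cells and no Stab2 in the other endothelial class, Slc38a1 stood at log2 -1.11 with an adjusted p of 0.0527, Slc16a6 turned from log2 -0.81 to 1.13 and Slc2a3 from -1.69 to 0.06. These gates change both criteria at once. They also ask for no Cdh5 in LepR stromal cells and for no Cxcl12 and no Stab2 in haematopoietic cells. The cause of the shifts was not tested. Slc45a4, grouped with the sugar carriers by its family, was at 4.85, 20.1 and 17.8 CPM in other endothelial and 0.614, 1.39 and 0.884 CPM in sinusoidal cells (log2 -3.82 ± 0.36 (SE), edgeR adjusted p = 5.45e-05). Its arterial subset stood at 1.44, 26.5 and 30.6 CPM, low in WT, where the arterial marker Sema3g was also lowest in that subset, at 318 CPM against 827 and 689.8 CPM; the part of that difference was not tested. Slc12a7, a potassium and chloride cotransporter, was chosen after its values were seen. Its mean was 52.5 CPM in sinusoidal and 44.2 CPM in other endothelial cells, so it was not lower in sinusoidal cells. It was at 51.8, 73.7 and 92.8 CPM in the arterial and 7.25, 9.1 and 19.1 CPM in the Ptprc subset, with no overlap.

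**Figure D4:**
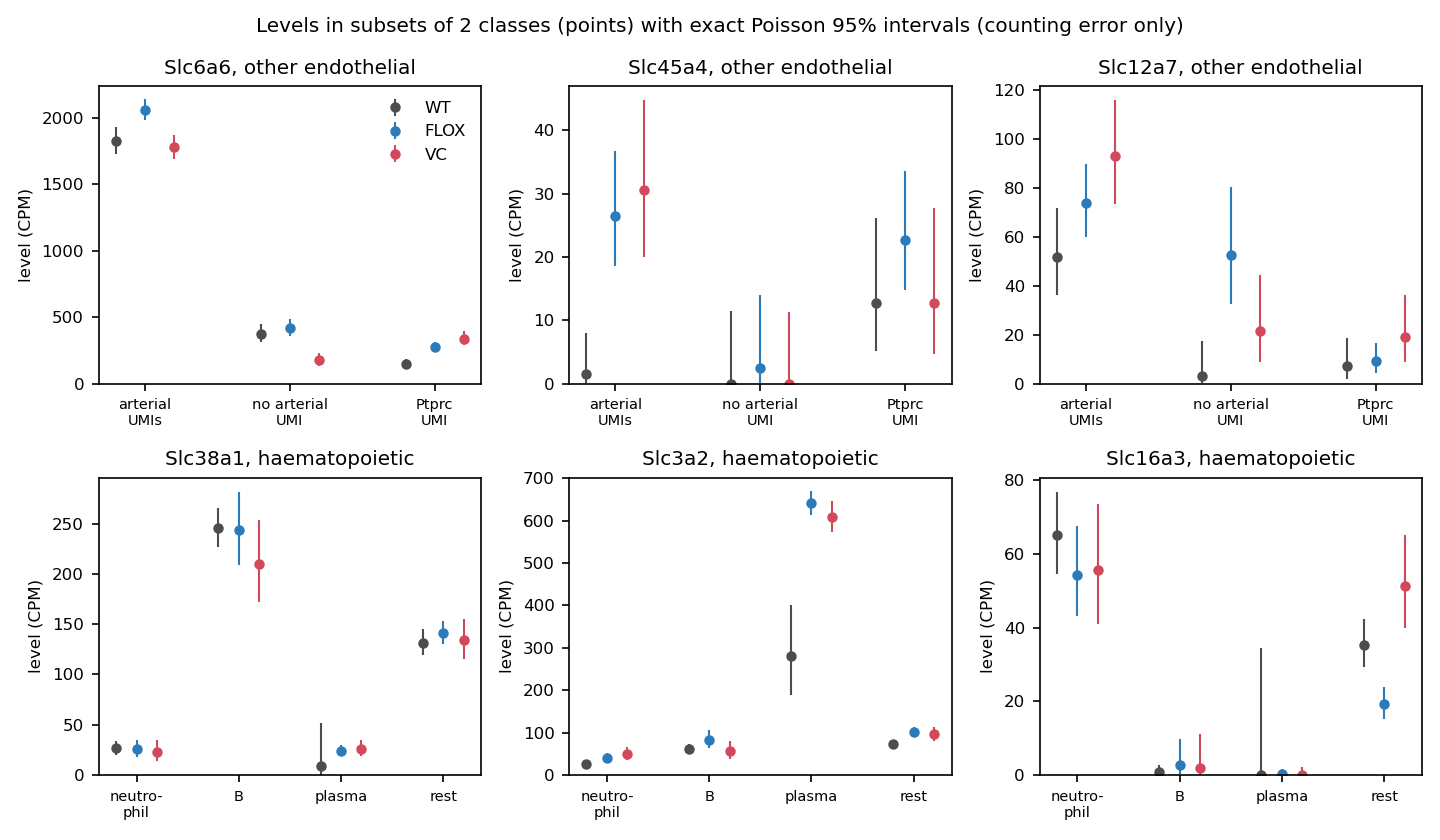
Points give CPM with exact Poisson 95% intervals (counting error only) in subsets of other endothelial cells (top; arterial marker UMIs, none, or a Ptprc UMI) and of haematopoietic cells (bottom; neutrophil, B, plasma gates and the rest). Slc6a6 is highest in the arterial subset of every library, Slc38a1 in the B gate, Slc3a2 in the plasma gate, while Slc16a3 is near 0 in both lymphoid gates.

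The haematopoietic leaders were high in different blood cells. Slc38a1 was at 245, 244 and 209.8 CPM in the B gate and 26.4, 25.5 and 22.7 CPM in the neutrophil gate. Slc16a3 went the other way, at 0.776, 2.71 and 2 CPM in the B gate and 65.1, 54.3 and 55.6 CPM in the neutrophil gate, with no overlap. Slc15a4, the lysosomal carrier of histidine and peptides, was at 31.4, 52.8 and 63.9 CPM in the B and 13.2, 10.1 and 7.94 CPM in the neutrophil gate. Slc39a11 was at 2.33, 4.06 and 0 CPM in the B gate and 26.4, 29.5 and 53.3 CPM in the neutrophil gate. Slc16a6, a carrier of the monocarboxylate family, was at 14.4, 18.9 and 38 CPM in the B and 50, 46.2 and 37.4 CPM in the neutrophil gate, which overlapped, and led at 36, 30.1 and 31.2 CPM in the class (log2 2.05 ± 0.23 (SE), edgeR adjusted p = 4.38e-05). The mitochondrial exchanger Slc25a4 was at 2.83, 5.36 and 4.53 CPM in neutrophil-gated and 142, 157 and 99.9 CPM in B-gated cells. Slc25a5 was at 142, 218 and 212 CPM in neutrophil-gated and 481, 464 and 419.6 CPM in B-gated cells, so both were lower in the neutrophil gate in every library. These gates were set on marker UMIs after the class sums were known, so the values are descriptions.

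The genotypes were compared within each class by size alone, because 1 library per genotype gives no replicate and no test. A member counted when it was at least 1.5-fold higher or lower in 1 library than in both others, and by more than those differed, provided it averaged 10 CPM or more over the libraries and had 100 UMIs or more. In sinusoidal cells, 104 members passed the minimum, and 0 were higher and 0 lower in VC, where 1.43% and 0.301% of 8309 genes were. In LepR stromal cells, 0 of 96 were higher and 0 lower in VC, against 0.916% and 0.510% of 8626 genes. In other endothelial cells, 0 of 70 were higher and 2 lower, against 1.76% and 4.68% of 7391 genes. The 6 interferon response markers summed to 769, 723 and 7193 CPM in sinusoidal cells, highest in VC.

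The pair lower in VC other endothelial cells rested on few UMIs. Slc29a3, a lysosomal nucleoside carrier, had 35, 68 and 24 UMIs, or 21.2, 22.1 and 13.4 CPM, with a VC to WT ratio of 0.629 (0.358 to 1.09) and an interval that includes 1. Slc36a4, an amino acid carrier, had 46, 71 and 23 UMIs, or 27.9, 23.1 and 12.8 CPM, with ratios of 0.459 (0.265 to 0.772) to WT and 0.555 (0.331 to 0.899) to FLOX. Intervals in brackets are exact at 95% and cover counting error only. Under purer gates 0 members were lower, of 28 that passed the minimum.

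WT was the odd library in more members than VC was, as it was over all genes in LepR stromal cells, where 319 genes were higher and 409 lower in WT and 79 and 44 in VC. Markers of other cells also set WT apart: in sinusoidal cells the neutrophil list summed to 705, 6642 and 4077 CPM and the 4 erythroid markers to 1493, 18.9 and 408 CPM, and in other endothelial cells the 4 B lineage markers to 1325, 344 and 597 CPM. Their part in the results was not tested. In sinusoidal cells Slc7a2 (chr8:40862396-40922308), the carrier CAT2 for arginine and other cationic amino acids, was at 124, 44 and 31.6 CPM. The FLOX to WT ratio was 0.356 (0.334 to 0.378) and the VC to WT ratio 0.255 (0.235 to 0.276). WT was also highest in other endothelial cells at 34, 11 and 3.89 CPM and in LepR stromal cells at 39.3, 23.4 and 18.8 CPM. The share of sinusoidal cells with a Slc7a2 UMI after thinning to 2000 UMIs was 20.2%, 9.05% and 5.32% (unthinned 62.3%, 28.7% and 26.8%), against at most 0.183% of haematopoietic cells.

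A pair of less abundant members differed the other ways. Slc10a6, a carrier of sulfated steroids, was at 5.6, 12.8 and 16.1 CPM in sinusoidal cells, lowest in WT, with a FLOX to WT ratio of 2.28 (1.93 to 2.7) and a VC to WT ratio of 2.88 (2.42 to 3.42). Slc15a2, the peptide carrier PEPT2, was at 16, 6.78 and 24.7 CPM in sinusoidal cells, lowest in FLOX, with a FLOX to WT ratio of 0.424 (0.36 to 0.497) and a VC to FLOX ratio of 3.65 (3.1 to 4.31). Among all 8309 genes passing the minimum in sinusoidal cells, 0.999% were higher and 0.951% lower in WT, and 0.156% were higher and 0.193% lower in FLOX. Among members, 1 of 104 was higher in WT, 1 lower in WT and 1 lower in FLOX.

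In LepR stromal cells 17 of 96 members were higher in WT than in both other libraries and 1 was lower, against 3.70% and 4.74% of 8626 genes. For each of the 17 both counting intervals lay off 1, but the same UMIs had chosen these members. The intervals therefore add no separate support. At a 2-fold rule 0 of the 96 remained, where 0.290% of 8626 genes were higher. With a minimum of 50 CPM 3 of 24 were higher, against 1.55% of 3345 genes. Most of the 17 were thus below 50 CPM, and all were below 2-fold by the smaller ratio. The largest by the smaller ratio was Slc30a4, a zinc carrier of vesicles, at 33.9, 16.5 and 17.8 CPM. Slc40a1 was at 256, 123 and 139.5 CPM, with ratios to WT of 0.479 (0.439 to 0.522) in FLOX and 0.545 (0.495 to 0.6) in VC. Slc12a2 was at 79.9, 44.3 and 36.3 CPM and Slc26a7 at 717, 452 and 404 CPM, with Slc26a7 ratios to WT of 0.631 (0.6 to 0.663) and 0.563 (0.532 to 0.596). In sinusoidal cells Slc40a1 was at 55.7, 63.3 and 59.8 CPM and Slc12a2 at 139, 167 and 141 CPM, with WT not the highest, while Slc7a2 and Slc26a2, also among the 17, were highest in WT there. In other endothelial cells Slc40a1, Slc30a4, Slc4a7 and Slc25a37 of the 17 passed the same rule as higher in WT. The member lower in WT was Slc25a5, at 126, 196 and 204 CPM.

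Over all 96 stromal members the median log2 ratio of WT was 0.20 over FLOX and 0.26 over VC, against 0.01 and 0.06 over 8626 genes; both ratios share the WT library. Other features of the WT stromal sum also differed. Ribosomal protein genes made up 4.66%, 6.52% and 6.79% of UMIs and Malat1 4.80%, 3.93% and 3.46%. The 5 neutrophil markers summed to 313, 2905 and 8196 CPM and the 3 osteogenic markers to 8834, 6756 and 6080.3 CPM, and the WT sum held 264 cells. Their part in the result was not tested, and library and genotype cannot be told apart.

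**Figure D5:**
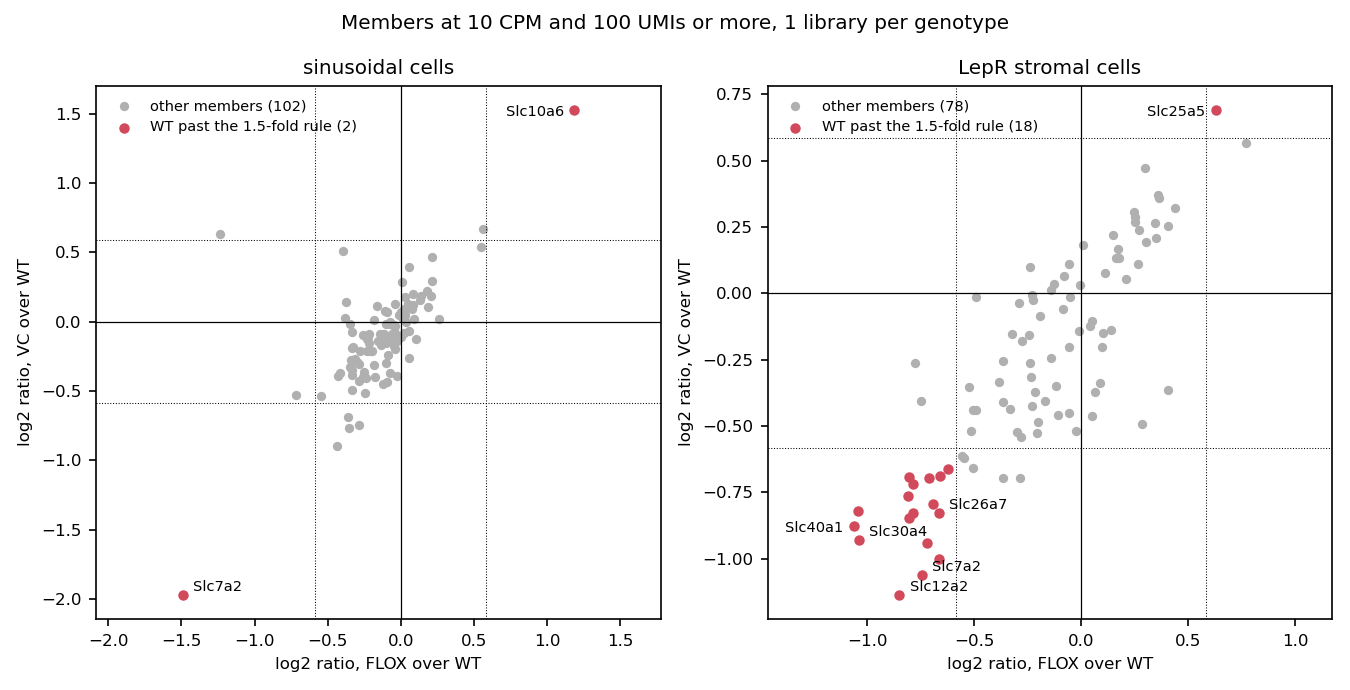
Each point is a member passing the minimum in sinusoidal (left, 104) or LepR stromal cells (right, 96), placed by its log2 ratio of FLOX over WT (x) and VC over WT (y); dotted lines mark 1.5-fold. Both axes share WT, and red points mark members for which WT is the odd library: 2 in sinusoidal cells, among them Slc7a2 at lower left, and 18 in LepR stromal cells, of which 17 are at lower left.

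In other endothelial cells 7 of 70 members were higher and 4 lower in WT, against 5.43% and 4.80% of 7391 genes. Under purer gates 1 and 3 of 28 were, against 3.71% and 7.38% of 4579 genes. Slc45a4 was among those lower in WT, at 4.85, 20.1 and 17.8 CPM. The 1 member lower in FLOX, against 0.636% of genes, was Slc23a2, a vitamin C carrier, at 29.1, 18.8 and 28.4 CPM. In haematopoietic cells, whose makeup differed between libraries, no such count was made.

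Transporters named outside the Slc pattern were examined with the same fit, on a list of 37 genes of which 29 were tested. Of the 29, 1 led in sinusoidal, 0 in other endothelial, 4 in LepR stromal and 5 in haematopoietic cells, and 19 in none, with 9.23%, 1.85%, 16.2% and 18.8% of all genes leading in these classes. Slco2a1, the prostaglandin transporter, was at 194, 190.3 and 276 CPM in sinusoidal and 116, 87.1 and 114 CPM in other endothelial cells (log2 1.13 ± 0.17 (SE), edgeR adjusted p = 6.97e-04). The stromal leaders were Slco1a4, Flvcr2, Ank and Ptch1, and Slco1a4, a carrier of organic anions, was at 17.1, 9.24 and 7.46 CPM in stroma and at most 0.0331 CPM in every other class and library. Ucp2, a mitochondrial carrier named outside the pattern, led in haematopoietic cells at 468, 244 and 259.9 CPM and was at 293, 191 and 224 CPM in other endothelial and 75.3, 66.3 and 69.6 CPM in sinusoidal cells. Between the endothelial classes 1 of the 29 was higher and 6 lower in sinusoidal cells, where 15.2% and 17% of all genes were.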

How the data were processed

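Marrow cells of 3 libraries (WT, FLOX, VC) were profiled with the 10x Genomics 3′ kit, per the labels' protocols. The deposited matrices hold raw counts of UMIs per gene and barcode. Cell Ranger 2.1.1, Seurat 3.1 and the mm10 build are named in the submitters' processing notes, while the matrix headers name software 3.1.0; which version made the deposited counts is unsure. Members, gene lists, gates and tests were chosen with earlier results of these data known.

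UMIs were summed per library and class over barcodes with at least 500 genes and at most 10% mitochondrial UMIs. Barcodes that met no gate entered no class, and no doublet caller was run. Class sums were fitted with edgeR 4.0.16 in R 4.3.3 (TMM normalization, filterByExpr, quasi-likelihood test, class and library terms, Benjamini-Hochberg adjustment over 13987 genes), after a test on simulated counts. Pairing came from the library itself, since each library gave all 4 classes. DESeq2 1.42.0, other scalings, filters and gates, and leaving out each library were alternatives. Counting intervals are exact (95%) and, with 1 library per genotype, cover counting error only. Shares of cells were taken after thinning to 2000 UMIs, which left out 18, 29 and 7 sinusoidal, 40, 38 and 32 other endothelial, 2, 2 and 3 LepR stromal and 22, 13 and 8 haematopoietic cells.

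Named members were the 10 with most UMIs, the first 6 leading in each class by difference to the nearest class, the 5 largest differences each way between the endothelial classes, members past the genotype rule for VC in sinusoidal or stromal cells, those nearest the UMI limit, and Slc7a2. A pair of genes under this rule is not reported here. The other members described (Slc1a5, Slc2a1, Slc2a3, Slc4a7, Slc7a8, Slc12a7, Slc15a2, Slc23a2, Slc25a51, Slc26a2, Slc27a1, Slc29a3, Slc30a1, Slc30a4, Slc31a2, Slc36a4, Slc37a3, Slc38a6, Slc40a1, Slc43a2 and Slc25a37) were chosen after their values were seen. Promoter windows are from RefSeq and gene positions from GENCODE M21, both on GRCm38.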

Additional observations from a re-analysis of the deposited data

Results flagged for a closer look

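Barcodes outside the cell filter, which entered no class, held signal of a member. Slc25a37, mitoferrin-1, the mitochondrial iron importer of red cell precursors, stood at 725 CPM in the 1400 barcodes outside the filter of WT, at 87.6 CPM in the 795 of FLOX and at 145 CPM in the 639 of VC. In kept cells it was at 61.0, 33.7 and 43 CPM. In the 1088, 465 and 449 barcodes with under 500 genes it was at 941, 68.0 and 206 CPM, and in the 312, 330 and 190 left out for mitochondrial UMIs at 115, 98.8 and 89.6 CPM. The haemoglobin gene Hba-a1 stood at 116363, 4566 and 43908 CPM in the barcodes outside the filter and at 773, 62.5 and 252 CPM in kept cells, in the same order of libraries. Its part in the Slc25a37 level of kept cells was not tested.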

How the results depend on the processing

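Members leading in sinusoidal, other endothelial, LepR stromal and haematopoietic cells numbered 32, 1, 26 and 13, with 46 higher and 11 lower in sinusoidal than in other endothelial cells. Leaving out each library in turn gave 16 to 30, 1 to 2, 20 to 26, 6 to 9, 23 to 39 and 5 to 13, with fewer samples in each fit. The fit with no replicate block, without the library term that pairs classes of 1 library, gave 24, 1, 23, 9, 40 and 11; no numbers in the labels pair samples beyond this. DESeq2 gave 26, 1, 31, 12, 43 and 11. Shares of all genes are not given for these alternatives or for the purer gates, so the counts describe members only. Under purer gates 3 members led in other endothelial cells, and Slc2a3 (log2 0.059) and Slc16a6 (log2 1.13) reversed between the endothelial classes; the cause was not tested. Of 1437 single values recomputed, 1201 kept direction and side of the threshold, 225 fell short of it and 2 reversed, and 140 of 174 counts stayed within 1.5 times.

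For VC, median-of-ratios scaling gave 1 member higher in sinusoidal cells and 1 lower in other endothelial cells. No minimum beyond 1 UMI gave 1 lower in sinusoidal, 10 lower in other endothelial and 1 higher in stromal cells. In other endothelial cells, weighting each cell alike or keeping cells with at least 5000 UMIs gave 1 higher. There, 2-fold, a 50 CPM minimum and purer gates gave 0 lower. Shares of all genes under these settings are not given, so none of these counts is a result about members. Under the main rule 1.76% of genes were higher and 4.68% lower in VC other endothelial cells.

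For WT, alternatives were chosen after seeing the data, and brackets give the share of all genes passing the minimum. Purer gates gave 2 higher (1.03%) and 2 lower (0.546%) in sinusoidal cells and 1 higher (3.71%) in other endothelial cells. Median-of-ratios scaling gave 3 lower (1.30%) in sinusoidal, 7 lower (6.30%) in other endothelial and 2 lower (6.69%) in stromal cells. A 2-fold rule gave 2 higher (1.34%) and 1 lower (2.03%) in other endothelial cells. In stromal cells it gave 0 higher (0.290%) and 0 lower (1.16%). A 50 CPM minimum gave 0 lower (0.761%) in sinusoidal and 3 higher (1.55%) in stromal cells. In other endothelial cells it gave 0 higher (3.76%) and 1 lower (3.85%). There, weighting each cell alike gave 9 lower (8.26%) and cells with at least 5000 UMIs gave 1 lower (4.42%). Median-of-ratios scaling moved the median log2 VC to WT ratio of all genes by 0.15 in sinusoidal, 0.21 in other endothelial and 0.09 in stromal cells. Other endothelial sums, from 197 to 381 cells, limit what could be detected there.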
